A study of Mus musculus with 4 samples.

Results

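The 4 mature arms of the mouse miRNA precursors miR-22 and miR-21a were described here: miR-22-3p, miR-22-5p, miR-21a-5p and miR-21a-3p, which are 4 of the 869 miRNAs listed in any sample. They were chosen by their measured abundance, because the summed reads of both arms placed miR-22 and miR-21a above all other precursors in these same samples, so their high levels are a description and not a finding. Small RNA was sequenced from C2C12 myotubes, cells of an immortalised mouse skeletal muscle line that fuse into multinucleate tubes when serum is withdrawn, and the labels give its strain background as 129/Rej. All 4 samples were collected on day 6 in low-serum differentiation medium, 2 without guanidinoacetic acid (NC) and 2 with 20 mM guanidinoacetic acid (GAA), a precursor of creatine. A single cell line at a single time and dose was studied, and nothing says whether the 2 samples of a group came from separate cultures, so p-values measure only the spread between these samples. The comparison of GAA with NC addresses how GAA shifts the miRNA profile of differentiating muscle cells.

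miRNAs are short RNAs cut from a hairpin precursor by the nucleases Drosha and Dicer. Of the duplex that results, the arm that stays in an Argonaute protein, the guide, represses mRNAs that pair with its seed (bases 2 to 8), while the other arm is mostly degraded. miR-21 is widely expressed, increases in proliferating, stressed or fibrotic tissue, and is known to repress Pdcd4 and Spry1. miR-22 is abundant in heart and skeletal muscle, increases as myoblasts differentiate, and is known to repress Sirt1 and Hdac4.

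The mature sequences are shown because seed and arm decide what a miRNA can pair with, and because the 3 miR-21 genes differ by few bases. They are RefSeq sequences on GRCm38.p6, written 5′ to 3′ with the seed in capitals.
miR-22-3p: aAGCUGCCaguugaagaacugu
miR-22-5p: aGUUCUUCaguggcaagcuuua
miR-21a-5p: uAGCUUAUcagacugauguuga
miR-21a-3p: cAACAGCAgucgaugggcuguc
miR-21b: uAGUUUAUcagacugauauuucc
miR-21c: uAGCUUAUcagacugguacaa
The 4 arms carry 4 different seeds. Of the 869 listed miRNAs, 717 matched an entry of the RefSeq table. Among its entries, miR-21c alone shares the seed of miR-21a-5p, and no other mature miRNA shares that of miR-22-3p, miR-22-5p or miR-21a-3p. Counted from 1 at the 5′ end of miR-21a-5p, miR-21b differs by C4U in the seed and by G18A, G21U and A22C beyond it, and miR-21c differs only beyond the seed, by A16G, G18A, U19C, U20A and G21A.

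Both precursors lie on chromosome 11. The Mir22 hairpin, chr11:75463716-75463810 on the plus strand, falls inside exon 2 of its non-coding host gene Mir22hg and of a non-coding transcript of Tlcd2. The Mir21a hairpin, chr11:86584067-86584158 on the minus strand, falls in the 3′ UTR part of exon 12, the last, of Vmp1, an autophagy gene read on the same strand. The 2 hairpins are 11120256 bases apart and thus are not one cluster.

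The data gave 4924776 and 4732359 mappable reads in NC-1 and NC-2 and 5566502 and 5657704 in GAA-1 and GAA-2. Reads of known miRNAs made up 33.6% and 43.6% of them in NC, and 56.3% and 50.4% in GAA. Values are RPM, reads scaled to a common total of 1000000 mappable reads, deposited as log2(RPM + 1). In bulk RNA, fewer cells of a type and less RNA per cell cannot be told apart. The 7 muscle miRNAs checked against the label were all listed, with summed levels of 10480 and 13715 RPM in NC and 11217 and 10533 RPM in GAA. Most of that was miR-486a-5p, miR-133a-3p and miR-133b-3p. Others of the 7 were low, with miR-1a-3p at 19.3 to 46.1 RPM, miR-208b-3p at 1.41 to 18.7 RPM and miR-499-5p at 1.98 to 4.47 RPM. Of 8 miRNAs that mark blood, endothelium, liver or neurons, all had reads in at least 1 sample, summing to 37.8 to 69.7 RPM per sample. Most of that was miR-9-5p, a neuronal miRNA (27.8 to 59.5 RPM), while the blood miRNA miR-223-3p was at 0 in 3 samples.

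NC-1 gave 30.6% of its miRNA reads to miR-22 and miR-21a together, NC-2 gave 35.1%, and both GAA samples gave 35.0%. NC-1 was the low sample and the other 3 were nearly equal, so the groups overlapped (32.9% ± 3.2 in NC and 35.0% ± 0.0134 in GAA, SD, n = 2). miR-22 held rank 1 in every sample except NC-2, where miR-21a passed it. By the mean over the 4 samples the next precursor, just outside the choice, was miR-27b, with 38946 and 38101 RPM in NC and 55931 and 58571 RPM in GAA. In NC-1 the gap was small, with miR-21a at 12.6% of the miRNA RPM and miR-27b at 11.6%. miR-143, enriched in smooth muscle and other mesenchymal cells, took 7.58% to 10.1% of each sample and stood above miR-27b in NC-2 (40019 RPM), and miR-26a took 3.52% to 4.38%.

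**Figure D1:**
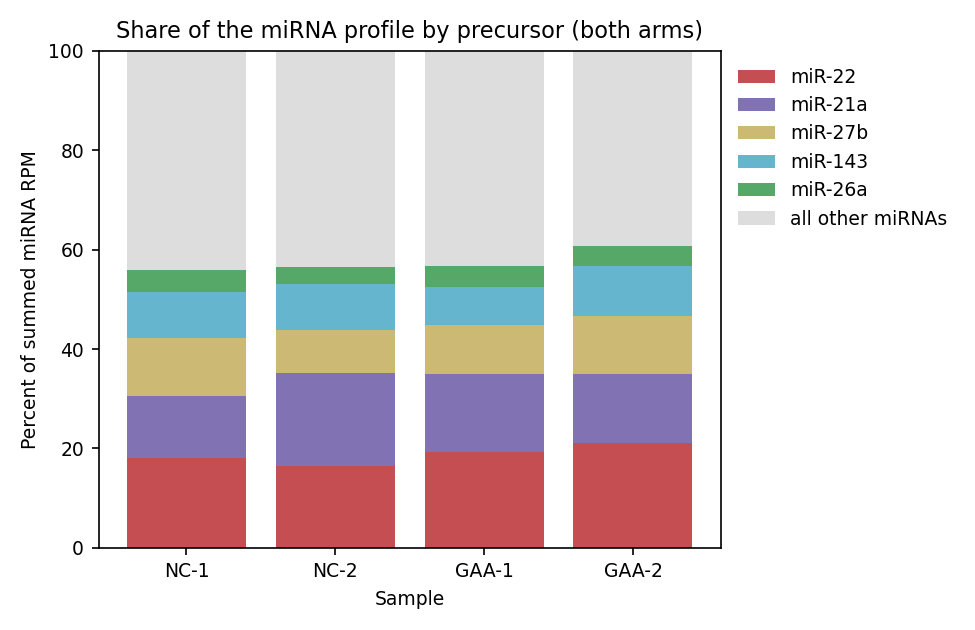
Stacked bars of the percent of summed miRNA RPM (vertical axis) taken by each of the 5 most abundant precursors and by all other miRNAs, in each of the 4 samples. Both arms were added, except for miR-26a, which is its 5p arm alone. miR-22 and miR-21a fill 30.6% of NC-1 and close to 35.0% of the other samples, with miR-21a larger than miR-22 in NC-2 alone.

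Nearly all of this came from 1 arm of each precursor. miR-22-3p, the guide arm of miR-22, took 18.0% of the miRNA reads of NC-1 (95% Wilson interval 18.0% to 18.1%) and 16.5% of those of NC-2 (16.4% to 16.5%). For GAA-1 this was 19.3% (19.2% to 19.3%), and GAA-2 was highest at 21.1% (21.1% to 21.2%). miR-21a-5p, the guide arm of miR-21a, took 12.4% (12.3% to 12.4%) of NC-1 and 18.5% (18.4% to 18.5%) of NC-2. Its shares of GAA-1, 15.5% (15.5% to 15.6%), and of GAA-2, 13.6% (13.6% to 13.7%), lay between them. Intervals cover counting error only, and at these depths they were far narrower than the gaps between samples of the same group. The other arms were minor: miR-21a-3p took 0.145% to 0.201% of the miRNA reads and stood between rank 52 and rank 62, and miR-22-5p took 0.00867% to 0.0141% and stood between rank 151 and rank 168.

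miR-22-3p was higher in both GAA samples than in both NC samples. NC-1 held 60553 RPM (298212 reads) and NC-2 71892 RPM (340219 reads), whereas GAA-1 held 108587 RPM (604452 reads) and GAA-2 106523 RPM (602678 reads). The groups did not overlap, and the GAA samples lay closer together than the NC samples. The means were 66223 ± 8018 RPM in NC and 107555 ± 1459 RPM in GAA (SD, n = 2), a 1.63-fold difference on the log2(RPM + 1) scale (95% interval 1.06 to 2.51). The log2 fold change was 0.70 (standard error 0.23), which did not pass adjustment over all 869 miRNAs (adjusted p = 0.272 with limma).

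miR-22-5p, the minor arm of the same hairpin, showed a larger difference with less spread. The NC samples held 37.4 and 37.8 RPM, from 184 and 179 reads, and the GAA samples 74.7 and 71.1 RPM, from 416 and 402 reads. The groups were apart, and the samples of each group lay close together. The means were 37.6 ± 0.33 RPM and 72.9 ± 2.6 RPM (SD, n = 2), 1.91-fold apart (95% interval 1.43 to 2.56), and the log2 difference was 0.94 with a standard error of 0.15. Its adjusted p of 0.205 with limma was the lowest in the whole table, a value shared with other miRNAs, and it did not pass the FDR of 0.01.

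miR-21a-5p did not separate by group. The 41489 RPM of NC-1 (204325 reads) stood beside 80613 RPM for NC-2 (381491 reads), 87502 RPM for GAA-1 (487082 reads) and 68644 RPM for GAA-2 (388368 reads). NC-1 was the low sample, and NC-2 lay between the 2 GAA samples. The means were 61051 ± 27665 RPM in NC and 78073 ± 13335 RPM in GAA (SD, n = 2), and the log2 fold change was 0.42 with a standard error of 0.41 (adjusted p = 0.524, limma). The 95% interval of the fold, 0.608 to 2.95, held both a decrease and an increase, and without NC-1 the log2 fold change was -0.06.

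miR-21a-3p behaved differently from its partner arm across the NC samples. The NC samples held 675 and 665 RPM (3324 and 3147 reads), and GAA-1 and GAA-2 held 817 and 947 RPM (4548 and 5358 reads). Both GAA samples were above both NC samples, with means of 670 ± 7.04 RPM and 882 ± 91.9 RPM (SD, n = 2). Its adjusted p was 0.305 with limma, for a log2 difference of 0.39 with a standard error of 0.16 and a 95% interval from -0.06 to 0.84.

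**Figure D2:**
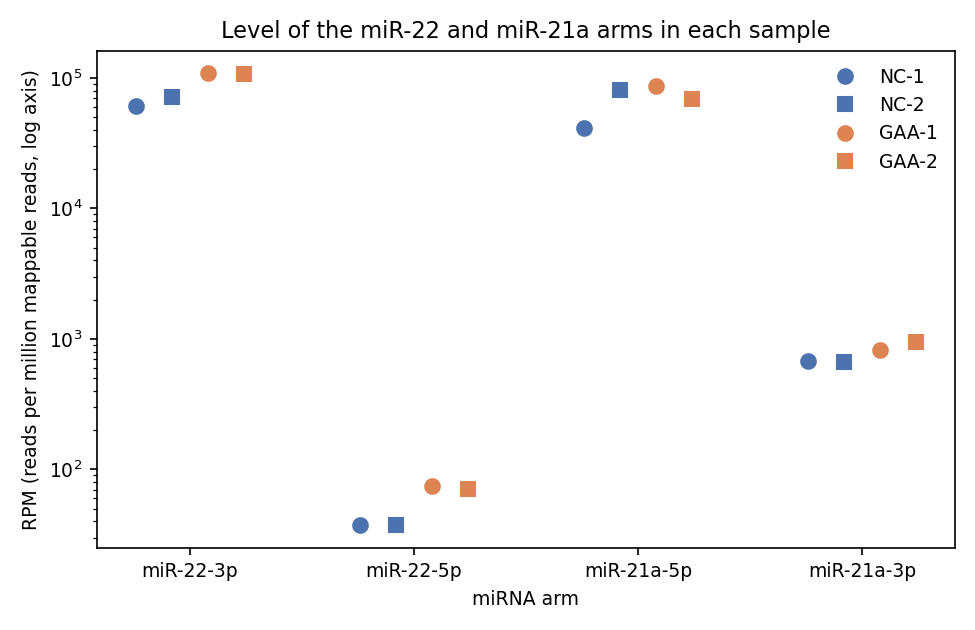
Level of each arm (RPM, log axis) in the 4 samples, with NC in blue, GAA in orange, circles for replicate 1 and squares for replicate 2. Both GAA samples lie above both NC samples for miR-22-3p, miR-22-5p and miR-21a-3p, whereas miR-21a-5p in NC-2 (80613 RPM) lies above GAA-2 (68644 RPM).

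These orders have to be read against the whole profile. With limma on the log values at the study's thresholds (FDR under 0.01 and absolute log2 fold change above 1), 0 of the 4 arms and 0 of the 869 miRNAs were called (0%). Still, 152 had an unadjusted p under 0.05 with limma, 136 of them higher in GAA. The study itself used edgeR on counts, which was not run here, and reported differentially expressed miRNAs, among them miR-133a-3p and miR-1a-3p. Both GAA samples lay above both NC samples for 3 of the 4 arms, but also for 38.6% of all listed miRNAs and for 64.4% of the 323 better-covered miRNAs, those with 10 or more reads in all 4 samples. The median log2 fold change of those 323 was 0.49, beside which miR-22-5p ranked 30, miR-22-3p 80, miR-21a-5p 183 and miR-21a-3p 198 from the highest. Summed miRNA RPM was 335813 and 436455 in NC and 563054 and 503884 in GAA, a 1.38-fold ratio of group means. Of that difference between group means, 28.1% was miR-22-3p (23.8% to 36.8% with any 1 sample left out). This stands beside its 17.3% of all miRNA reads in NC and 20.2% in GAA, so much of it follows from the choice by abundance. The part of miR-21a-5p, 11.6%, rested on single libraries, since it was -2.62% without NC-1, 18.5% without NC-2 and 6.45% without GAA-1.

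As a share of miRNA reads, which does not depend on the mappable total, miR-22 still separated by group and miR-21a did not. The share of miR-22-3p was 17.3% ± 1.1 in NC and 20.2% ± 1.3 in GAA, 2.96 percentage points higher (SD, n = 2, exact permutation test, two-sided, p = 0.33, the smallest that 2 samples against 2 can give). The share of miR-22-5p was 0.0111% and 0.00867% in NC and 0.0133% and 0.0141% in GAA, again with both GAA samples above (exact permutation p = 0.33). Both GAA samples were above both NC samples in share for 22.9% of the 323 miRNAs. The shares of miR-21a-5p (15.4% ± 4.3 in NC and 14.6% ± 1.4 in GAA, SD, n = 2, exact permutation p = 1) and of miR-21a-3p (0.177% ± 0.034 and 0.167% ± 0.030, exact permutation p = 0.667) overlapped. The difference in share of miR-21a-5p, -0.83 percentage points, turned to 2.23 without NC-2 and to 0.13 without GAA-2, and that of miR-21a-3p, -0.010, turned to 0.014 without NC-1 and to 0.011 without GAA-1.

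The size and, for miR-21a, the sign of the difference moved with the number that divided the reads. With the miRNA reads as divisor, the log2 fold change fell to 0.23 for miR-22-3p (standard error 0.27, adjusted p = 0.781 with limma) and 0.47 for miR-22-5p (standard error 0.22, adjusted p = 0.639), and turned to -0.05 for miR-21a-5p and -0.08 for miR-21a-3p. The median of the 323 miRNAs moved with it, from 0.49 to 0.02, so that the arms of miR-22 stayed above the median and those of miR-21a near or below it. Since the 4 arms alone make up much of the miRNA reads, they were also left out of the divisor, which gave 0.27, 0.52, -0.01 and -0.04 for miR-22-3p, miR-22-5p, miR-21a-5p and miR-21a-3p. Without them the remaining miRNAs still summed to 233058 and 283247 RPM in NC and 366072 and 327699 RPM in GAA. Median-of-ratios factors gave the lowest values, 0.17, 0.42, -0.11 and -0.14 in the same order.

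**Figure D3:**
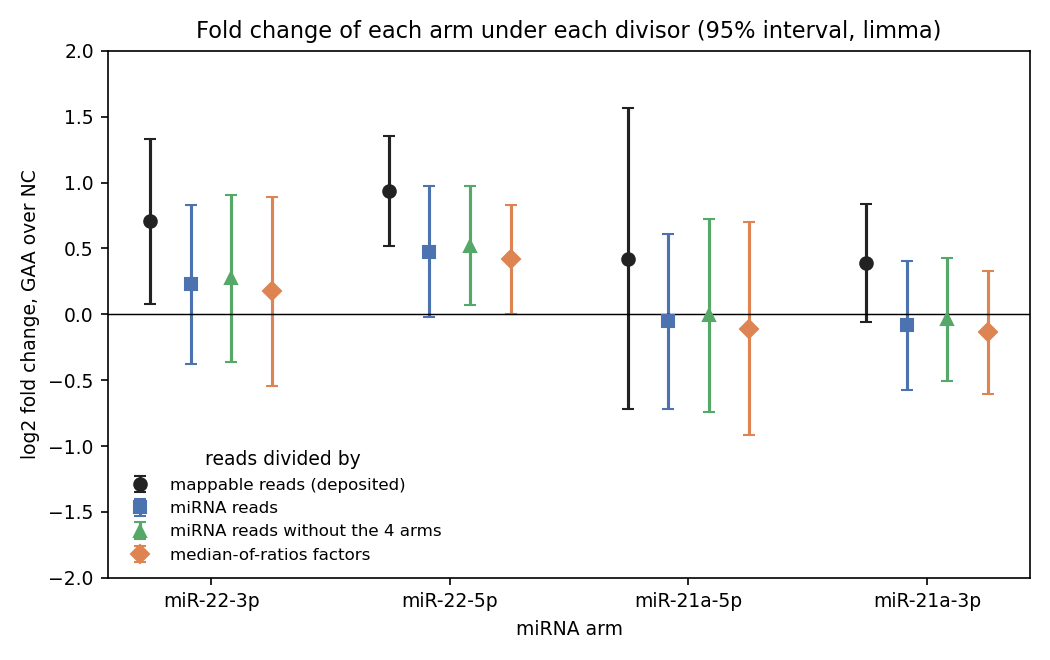
log2 fold change of GAA over NC (vertical axis) for each arm under 4 divisors of the reads, as points with 95% intervals from limma. The points of both miR-22 arms lie above 0 under all 4 divisors. Those of both miR-21a arms lie above 0 with mappable reads (0.42 and 0.39) and slightly below 0 with the other 3. The intervals of both miR-21a arms with mappable reads hold 0, as do those of miR-22-3p with the other 3 divisors. For miR-22-5p, at least the interval with miRNA reads as divisor (0.47, standard error 0.22) also holds 0.

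The ratio between the reads of the arms depends on no divisor. It is not independent of the choice by abundance, because nearly all reads of both precursors came from the dominant arm. For each read of miR-22-5p there were 1621 and 1901 reads of miR-22-3p in NC-1 and NC-2, with 1453 and 1499 in the 2 GAA samples. Both GAA samples were below both NC samples. The 5p arm made up 0.0617% of the precursor's reads for NC-1 (95% Wilson interval 0.0534% to 0.0712%) and 0.0526% for NC-2 (0.0454% to 0.0609%). The same share was 0.0688% for GAA-1 (0.0625% to 0.0757%) and 0.0667% for GAA-2 (0.0605% to 0.0735%), so that the interval of NC-1 overlapped those of both GAA samples and that of NC-2 overlapped that of GAA-2. On the log2(RPM + 1) scale the arm difference was 10.74 ± 0.16 in NC and 10.51 ± 0.03 in GAA (SD, n = 2), 0.23 lower in GAA (exact permutation p = 0.33). Without NC-2 it was 0.12 lower and without NC-1 0.35 lower.

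For each read of miR-21a-3p there were 61.5 and 121 reads of miR-21a-5p for NC-1 and NC-2, with 107 and 72.5 for the 2 GAA samples. Both GAA samples lay between the NC samples. The log2 arm difference was 6.43 ± 0.69 in NC and 6.46 ± 0.40 in GAA (SD, n = 2, exact permutation p = 1). Its small difference between groups, 0.03, turned to -0.46 without NC-1 and to -0.25 without GAA-1.

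Arms were paired by name, and 85 precursors had a 5p and a 3p arm of the same name that reached 10 reads in all 4 samples. Precursors with an arm numbered by its locus were left out, so ranks hold only among the 85. An example is miR-26a, with miR-26a-5p at 14725 to 23856 RPM and miR-26a-2-3p at 2.23 to 5.39 RPM. Of the 85, miR-22 had the second most unequal arms, after miR-143, with a mean absolute log2 arm difference of 10.62. miR-21a ranked 26 with 6.44. The median was 4.02. With a minimum of 10 reads for the weaker arm, such large differences could be seen only in very abundant precursors, so these ranks are a description. The groups were apart in arm ratio, in either direction, for 34.1% of the 85 precursors, and the difference between groups for miR-22 ranked 44 in size, about the median. The dominant arm is the 3p arm in miR-22 and the 5p arm in miR-21a. Of the 70 such precursors with both sequences in the RefSeq table, the dominant arm started with U in 36 (51.4%) and the minor arm in 16 (22.9%). miR-21a has U at the start of its dominant arm and C at that of its minor arm, whereas both arms of miR-22 start with A.

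**Figure D4:**
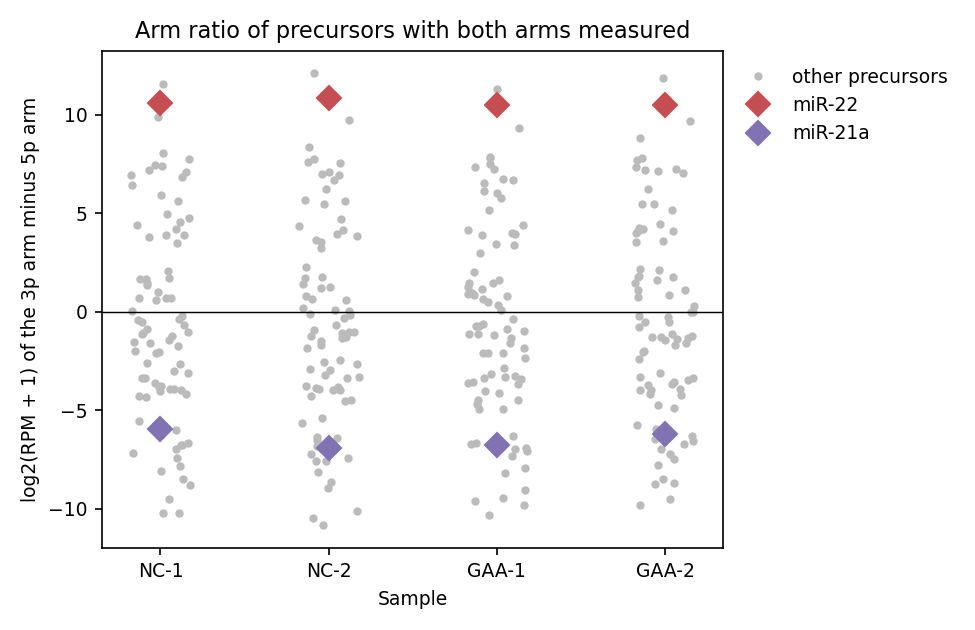
log2(RPM + 1) of the 3p arm minus that of the 5p arm (vertical axis) in each sample for the 85 precursors whose arms could be paired by name, with at least 10 reads of each arm in every sample. miR-22 (red diamonds) lies near the upper edge at 10.49 to 10.85 in all 4 samples, and miR-21a (purple diamonds) lies on the 5p side and moves from 5.94 in NC-1 to 6.92 in NC-2 in favour of the 5p arm.

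The spread between replicates differed among the 4 arms, and by how much depended on the divisor. miR-21a-5p differed by 0.96 on the log2 scale between NC-1 and NC-2, more than 316 of the 323 better-covered miRNAs, whose median gap was 0.27. miR-22-3p differed by 0.25 in NC, and miR-21a-3p and miR-22-5p by 0.02 each. In share of miRNA reads the NC gaps were 0.58 for miR-21a-5p (more than 277 of the 323), 0.40 for miR-21a-3p (228), 0.36 for miR-22-5p (210) and 0.13 for miR-22-3p (79), beside a median of 0.26. The small RPM gaps of the minor arms in NC were thus not small in share. In GAA the RPM gaps were 0.03 for miR-22-3p, 0.07 for miR-22-5p, 0.35 for miR-21a-5p and 0.21 for miR-21a-3p, beside a median of 0.28. The GAA gaps in share were 0.13, 0.09, 0.19 and 0.37 in the same order, the widest being miR-21a-3p, beside a median of 0.26.

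The order of the guide arms was not fixed. For each read of miR-21a-5p there were 1.46 and 0.892 reads of miR-22-3p for NC-1 and NC-2, with 1.24 and 1.55 for the 2 GAA samples. The log2 difference was 0.19 ± 0.50 in NC and 0.47 ± 0.23 in GAA (SD, n = 2, exact permutation p = 0.667), and the difference between groups, 0.28, turned to -0.07 without NC-2. The neighbours miR-22-3p and miR-21a-5p therefore did not differ beyond their spread in NC, while each minor arm lay far below its guide in every sample.

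The paralogues miR-21b (chromosome 3) and miR-21c (chromosome 8) were near the limit of the data. miR-21b had 13 reads in each NC sample and 13 and 30 in the GAA samples, and miR-21c had 13 and 12 in NC and 13 and 31 in GAA. Against 204325 to 487082 reads of miR-21a-5p, they added at most 5.48 RPM each. The counting could have shared reads between such near-identical copies, so the values of miR-21b and miR-21c are uncertain, whereas they are too small to move miR-21a-5p.

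The miRNAs whose pattern over the 4 samples lay closest to each arm were named by the root mean square distance of log2(RPM + 1), centred on the mean of the 4 samples, among 323 miRNAs. For miR-22-3p they were miR-326-3p (0.031), miR-345-5p (0.043) and miR-28a-5p (0.046), against a median distance of 0.24. miR-345-5p, for example, stood at 54.6 and 65.5 RPM in NC and at 103 and 104 RPM in GAA. For miR-22-5p they were miR-125b-1-3p (0.042), miR-34c-3p (0.045) and miR-149-5p (0.046), against a median of 0.31. Its own partner miR-22-3p came in place 37, at a distance of 0.14.

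For miR-21a-5p the closest were miR-3068-3p (0.089), miR-450b-5p (0.11) and miR-181b-5p (0.11), against a median of 0.33. miR-181b-5p shared the low value in NC-1, with 465 and 744 RPM in NC and 814 and 683 RPM in GAA. For miR-21a-3p they were miR-130a-5p (0.056), miR-1843a-5p (0.069) and miR-32-5p (0.070), against a median of 0.28. The 2 arms of miR-21a were far apart, at a distance of 0.40, so that miR-21a-5p came in place 255 from miR-21a-3p.

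The muscle miRNAs were mostly lower in GAA. Both GAA samples were below both NC samples in RPM for 5 of the 7 and in share of miRNA reads for all 7. Of the 7, 0 were called by limma on RPM. The same held in RPM for 5.52% of all 869 miRNAs and 2.79% of the 323 better-covered ones, and in share for 13.5% and 19.8%. miR-208b-3p, encoded in a myosin heavy chain gene, was at 18.7 and 17.8 RPM in NC against 3.05 and 1.41 RPM in GAA (log2 difference -2.62, standard error 0.32, adjusted p = 0.205 with limma). Its values came from few reads, 92 and 84 in NC and 17 and 8 in GAA, so it is not among the 323 better-covered miRNAs. It was called when reads were divided by miRNA reads or by median-of-ratios factors, but not by miRNA reads without the 4 arms. miR-206-3p, a miRNA of skeletal muscle, stood at 494 and 553 RPM in NC and at 406 and 355 RPM in GAA. miR-133a-3p stood at 3059 and 3787 RPM in NC and at 2251 and 2409 RPM in GAA. In RPM the groups overlapped for miR-486a-5p and miR-133b-3p. miR-486a-5p, the most abundant of the 7, stood at 4849 and 6615 RPM in NC and at 6700 and 5640 RPM in GAA. miR-133b-3p stood at 2020 and 2691 RPM in NC and at 1829 and 2104 RPM in GAA. The part of the muscle miRNAs, or of the larger miRNA fraction of the GAA libraries, in the differences of miR-22 and miR-21a was not tested.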

How the data were processed

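Small RNA libraries of 2 NC and 2 GAA samples were analysed, grouped by the sample labels. Per the methods, the authors kept clean reads of 14 to 36 nt, mapped them to GRCm38.p5, counted miRBase miRNAs with miRDeep2 (version not given in the sources used here) and divided by mappable reads. Each deposited file gives a log2 value, log2(RPM + 1), for the miRNAs detected in that sample, and undetected miRNAs were set to 0. RPM fell on equal steps worth 0.177 to 0.211 RPM, from which reads were recovered. Of the listed values 95.6% were whole within 0.02 of a read, and 49 miRNAs had a value that was not. Those of the 4 arms were whole. Reads were used for depth, shares, intervals, filters and divisors.

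The test was run on the deposited log values, and the count test of the study (edgeR) was not run. GAA was tested against NC over all 869 miRNAs with limma 3.58.1 (R 4.3.3; eBayes with trend), with a pseudocount of 1, no filter and Benjamini-Hochberg adjustment. A fold on this scale understates the change of low miRNAs. Single values were compared with exact permutation tests (scipy 1.17.1), two-sided, in which 2 against 2 cannot go below 0.33. Members, lists and tests were chosen with earlier results of these data known. Named miRNAs were the members, the 3 next precursors, the 3 closest in pattern to each member, seed relatives and paralogues, and the marker lists; miR-143 is also named for its arm ratio. A further list of miRNAs is not reported here. Alternatives were other divisors, a pseudocount of 0.1, at least 10 reads in every sample, an adjusted p under 0.05 alone, the replicate number as a block and leaving out each sample. Annotation came from GENCODE M21 and figures from matplotlib 3.10.9.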

Additional observations from a re-analysis of the deposited data

How the results depend on the processing

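Both arms of miR-22 kept their direction and stayed uncalled under every alternative run, with log2 fold changes of 0.17 to 0.83 for miR-22-3p (adjusted p from 0.111 to 0.822 with limma) and 0.42 to 0.97 for miR-22-5p (0.0801 to 0.639). miR-21a-5p reversed with miRNA reads (-0.0541), with miRNA reads without the 4 arms (-0.00852) and with median-of-ratios factors (-0.11), and ranged from -0.0568 (without NC-1) to 0.90 (without NC-2) with a sample left out. miR-21a-3p reversed under the same 3 divisors (-0.0836, -0.0380 and -0.138). With a sample left out, the difference in share ranged from -3.89 to 2.23 percentage points for miR-21a-5p and from -0.0345 to 0.0142 for miR-21a-3p, the log2 arm difference of miR-21a from -0.46 to 0.52, and that of miR-22-3p to miR-21a-5p from -0.0728 to 0.638. The part of the difference in summed miRNA RPM that was miR-21a-5p ranged from -2.62% to 18.5%, a check added after seeing the data. The cause was not tested. Division by miRNA reads and median-of-ratios factors each called 1 miRNA in place of 0, miR-208b-3p, whereas division by miRNA reads without the 4 arms called 0. The deviations of same-numbered samples had r = -0.15 across 323 miRNAs, and the labels name no shared batch. With 2 samples per group, crossed numbers give 0.15 by construction, so this r cannot decide whether samples were paired. When the replicate number was added as a block, log2 fold changes were as before by construction, 0.70 for miR-22-3p (adjusted p = 0.517 with limma) and 0.94 for miR-22-5p (adjusted p = 0.406), and 0 miRNAs were called. The crossed numbers as a block, added after seeing the data, also called 0. With 2 samples per group, the spread and not the depth limits these comparisons for the guide arms.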

Other observations

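A comparison of the minor arms was added after the values were seen. For each read of miR-22-5p there were 18.1 and 17.6 reads of miR-21a-3p for NC-1 and NC-2, with 10.9 and 13.3 for the 2 GAA samples, so both GAA samples were below both NC samples (log2 difference -0.54, exact permutation p = 0.33, the smallest that 2 against 2 can give). Because the pair was picked for this pattern, the value is a description.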
